A study of Gasterosteus aculeatus with 31 samples.

Results

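Chromatin accessibility in the brain was compared between father-reared and orphaned males of the threespine stickleback (Gasterosteus aculeatus), a small fish in which the father alone guards, fans and retrieves the young. The males were chosen by the sex and care given in the labels: 8 father-reared males, labelled Day 10, and 7 orphaned males, labelled Day 0, which makes 15 of the 31 fish of the series. The other 16 fish were females. Father-reared fish were raised by their wild-caught fathers and orphaned fish were reared by hand. Both groups were sampled at an age of 6 to 8 months, before sexual maturity. In both groups each fish had been chased by a mock predator, a sculpin dummy swum around an open tank, and its brain was taken 60 minutes later. No fish without an attack was analysed here, so every value below is from brains after the attack.

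Each library came from the left or the right side of 1 brain, 3 left and 5 right in father-reared males and 2 left and 5 right in orphaned males. Each male carried a leading fish number of his own, read here as his family, so no 2 males were brothers by that number. The design text describes families linked by a shared parent, without saying which. Such males are taken as independent in every test, and p-values for males refer to the spread between these 15 fish. In edgeR's tests that spread is drawn in part from the other peaks, so it is not the spread at 1 peak alone. All 15 males had a female with the same leading number in the series, called his sister below.

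The assay, ATAC-seq, uses the Tn5 transposase, which cuts and tags DNA where it is not covered by nucleosomes or other proteins. The number of reads at a site therefore follows how open the site is, averaged over all cells of the tissue. Open sites are mostly promoters and enhancers, the stretches from which genes are switched on. In bulk brain tissue a lower count from fewer cells of a type and from less open chromatin in each cell cannot be told apart. Stress and early care are known to leave marks on brain chromatin in mammals, and the question of the comparison was whether care by the father goes with a difference in the brains of sons.

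The table held read counts for 102149 peaks in every male, 93652 on the 21 linkage groups and 8497 on 667 scaffolds. Total counts per male ran from 2857578 to 7746584 (median 4332099), and a typical peak was covered by 20 to 59 counts, taking the median over peaks in each male. The 105 pairs of males correlated across peaks with r between 0.773 and 0.904, and orphaned male 5 was least like the others (mean r 0.805). The share of counts on groupXIX, the sex chromosome of this species, was 3.40% to 3.66% in males and at least 4.39% in every female, so no male went against the sex in his label. No gene is named for any peak, because no source used here states the genome build, and marker genes of brain cells were therefore not analysed here. Positions are those of the deposited table. CPM below are counts scaled to library size, with library sizes corrected by the trimmed mean of M-values (TMM), and log2 differences are father-reared minus orphaned.

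No peak differed between father-reared and orphaned males at a Benjamini-Hochberg adjusted p under 0.05 in edgeR's quasi-likelihood test. That was 0 of 100264 peaks tested (0%), with a lowest adjusted p of 0.69. DESeq2 and limma voom also called 0 peaks, with lowest adjusted p values of 0.12 and 0.32 and with 4689 and 5604 peaks at an unadjusted p under 0.05. At an unadjusted p under 0.05, edgeR found 2324 peaks higher in father-reared males (2.32%) and 2893 lower (2.89%). The balance of these 2 directions moved with the scaling. It was 2637 higher and 2597 lower with RLE size factors. Without scaling factors it was 1698 higher and 3448 lower, and the median log2 difference over all peaks was -0.03 in place of -0.00.

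The fit was tight enough to bound the difference at most peaks. The 95% interval for the ratio of father-reared over orphaned males stayed inside 1.5-fold in either direction at 88.1% of peaks and within 2-fold at 99.7%. The median absolute log2 difference was 0.11, against a median 95% half-width of 0.30. Over the whole profile, care accounted for 7.36% of the variation in log2 CPM among the 15 males, where an even share per degree of freedom would be 7.14% (one-sided exact permutation p = 0.32 over 6435 splits). In the 5000 most variable peaks it accounted for 6.85% (one-sided exact permutation p = 0.49). Brain side accounted for 6.25% over all peaks tested (one-sided exact permutation p = 0.70).

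The 3 peaks with the lowest p among those higher in father-reared males lay on scaffold_47, groupII and scaffold_497. At scaffold_47 1119029 to 1119429 the father-reared males had 5.68, 8.30, 11.6, 7.15, 7.65, 4.61, 10.9 and 9.18 CPM, against 3.89, 4.73, 3.98, 5.66, 5.49, 4.54 and 3.39 CPM in orphaned males. All father-reared males but male 6 lay above the highest orphaned male. The means were 8.13 ± 2.40 and 4.52 ± 0.843 CPM (SD, n = 8 and 7), a log2 difference of 0.87 (standard error 0.17; adjusted p by edgeR = 0.69).

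At groupII 14550436 to 14550836 the father-reared males had 12.5, 21.5, 16.4, 8.58, 18.7, 12.6, 12.9 and 7.80 CPM, against 8.53, 6.50, 8.43, 6.69, 5.26, 12.6 and 10.2 CPM in orphaned males. Father-reared males 1, 4, 6 and 8 lay inside the range of orphaned males, and the log2 difference was 0.75 (standard error 0.17; adjusted p by edgeR = 0.93). At scaffold_497 5432 to 5832 the father-reared males had 3.31, 5.53, 4.33, 3.57, 4.98, 3.88, 7.53 and 6.42 CPM, against 3.39, 2.17, 0.937, 2.57, 1.83, 3.55 and 2.71 CPM in orphaned males. The groups touched only through father-reared male 1, and the log2 difference was 0.97 (standard error 0.23; adjusted p by edgeR = 0.93).

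The 3 peaks with the lowest p among those lower in father-reared males lay on groupV, groupI and groupIX. At groupV 6044666 to 6045066 the father-reared males had 8.29, 6.12, 8.42, 8.58, 7.47, 8.25, 6.80 and 5.97 CPM, against 12.7, 9.25, 12.4, 9.01, 11.9, 10.3 and 12.2 CPM in orphaned males. Every father-reared male lay below every orphaned male. The means were 7.49 ± 1.06 and 11.1 ± 1.55 CPM (SD, n = 8 and 7), a log2 difference of -0.59 (standard error 0.13; adjusted p by edgeR = 0.93).

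At groupI 19249555 to 19249955 the father-reared males had 8.52, 8.10, 9.14, 8.22, 8.01, 9.95, 5.83 and 8.03 CPM, against 8.78, 11.8, 14.1, 16.0, 8.23, 16.4 and 16.8 CPM in orphaned males. Orphaned males 1 and 5 stood at the level of the father-reared males, and the other orphaned males lay above all of them. The log2 difference was -0.66 (standard error 0.15; adjusted p by edgeR = 0.93). At groupIX 10809733 to 10810133 the father-reared males had 3.55, 5.14, 5.29, 3.93, 4.63, 5.82, 5.59 and 4.36 CPM, against 8.90, 8.07, 7.50, 6.18, 7.78, 6.90 and 7.29 CPM in orphaned males. These groups did not overlap either, and the log2 difference was -0.66 (standard error 0.15; adjusted p by edgeR = 0.93).

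**Figure D1:**
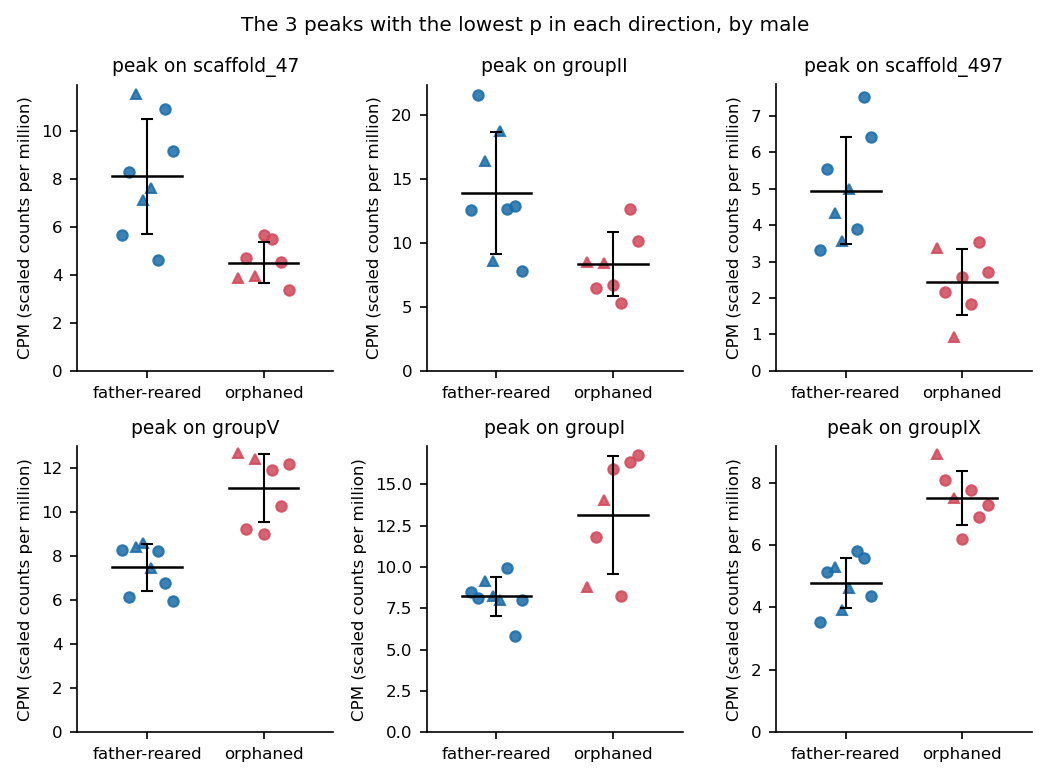
Accessibility in CPM (counts scaled to library size) for each male at the 3 peaks with the lowest p in each direction. Each point is 1 male (circle for a right and triangle for a left brain side), bars are the mean and SD, and the groups do not overlap at the peaks on groupV and groupIX.

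In all, 12 peaks in each direction were taken by lowest p, the 6 above included, and none passed. Their log2 differences ran from 0.50 to 1.39 among the 12 higher in father-reared males and from -0.73 to -0.52 among the 12 lower. Of the 12 higher peaks 6 lay on scaffolds and 2 on groupXIX, and of the 12 lower peaks 1 lay on a scaffold. Of all 100264 peaks tested, 7869 lay on scaffolds and 4289 on groupXIX. At an unadjusted p under 0.05, 237 scaffold peaks were higher in father-reared males (3.01%) and 244 lower (3.10%). Of the 12 higher peaks, 1 had no overlap between the groups: groupXX 4226119 to 4226519, at 10.4 to 14.3 CPM in father-reared and 7.47 to 10.0 CPM in orphaned males. Its log2 difference was 0.50 (standard error 0.12; adjusted p by edgeR = 0.93). Among the 12 lower peaks 5 had no overlap. Besides groupV and groupIX these were groupXVIII 3432873 (log2 -0.61), groupI 14271319 (log2 -0.61) and scaffold_122 283270 (log2 -0.52). A lack of overlap at these peaks is no further evidence, because they were chosen by p in the same males.

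The remaining peaks of the 12 higher were groupXIX 2524067, scaffold_54 896138, scaffold_185 7570, scaffold_709 10575, groupXIX 8627906, groupVII 16635082, scaffold_99 211033 and groupIV 5048223. Their log2 differences were 1.39, 0.58, 1.21, 0.86, 1.04, 0.61, 0.50 and 0.56. The 2 largest came from peaks with few reads and overlapping groups. At groupXIX 2524067 the range was 0.729 to 5.33 CPM in father-reared and 0.592 to 2.83 CPM in orphaned males. At scaffold_185 7570 it was 3.22 to 12.1 CPM and 0 to 6.90 CPM. The remaining peaks of the 12 lower were groupX 1428597, groupI 27957950, groupVI 4973594, groupIII 5692561, groupVII 20475031 and groupXXI 9074328. Their log2 differences were -0.67, -0.66, -0.64, -0.73, -0.53 and -0.59. The direction held on both brain sides taken apart at all 24 peaks. Library numbers were split into 3 consecutive stretches that may follow preparation batches. The direction held in each of them at 10 of the 12 higher and 12 of the 12 lower peaks. The exceptions were groupII 14550436 and scaffold_185 7570. All 24 peaks were chosen by p in these same males, so agreement between sides or stretches was largely set by that choice and is no independent evidence.

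Over all 100264 peaks tested, father-reared males lay wholly above orphaned males at 18 peaks (0.018%) and wholly below them at 17 (0.017%). Among all 6435 splits of the males, a share of 0.000311 separates any 1 peak fully in either direction. Separations were found at about this rate, so they are no sign of a difference by care. The absolute log2 differences at these 35 peaks ran from 0.25 to 0.66. Of these peaks 2 lay on scaffolds and 4 on groupXIX, beside 7869 and 4289 of all 100264 peaks tested. In females 20 of the 35 had the same direction and 1 of them an unadjusted p under 0.05. Over all 100120 peaks tested in both sexes, 57.8% had the same direction, and 2873 peaks also had such a p in females.

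Neighbouring peaks were described to see whether a difference extended beyond a single site. Within 10 kb of the 12 higher peaks there were 45 other peaks, of which 32 had the same direction and 7 of these an unadjusted p under 0.05. At scaffold_47 7 of 9 neighbours were also higher in father-reared males, 3 of them at an unadjusted p under 0.05. Within 10 kb of the 12 lower peaks there were 80, of which 45 had the same direction and 2 of these an unadjusted p under 0.05. Over all peaks tested, 49.6% had a log2 difference above 0. At an unadjusted p under 0.05, 2.32% of them were higher and 2.89% lower in father-reared males. Neighbours share fish and libraries, so they are no independent evidence.

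A peak with many reads in some males and almost none in others was removed by the filter on low counts before the test. The filter asks for about 10 counts in at least 7 males. Below, open and closed name these high and low counts, and what made them differ was not tested. At scaffold_89 10177 to 10577 the father-reared males had 0.473, 16.4, 12.5, 0.357, 20.5, 0.485, 23.8 and 20.2 CPM. The orphaned males had 0.752, 0.394, 0, 0.257, 0.229, 0 and 0.169 CPM. The site was thus open, at 12.5 CPM or more, in 5 of 8 father-reared males and in 0 of 7 orphaned males, and the other 3 father-reared males stood at the level of the orphaned ones. In reads, the father-reared males held 441 counts at this site and the orphaned males 11.

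With all 102149 peaks kept, this site was the only one called in edgeR's quasi-likelihood test (1 of 102149, 0.000979%). Its log2 difference was then 5.26 (standard error 0.62; adjusted p by edgeR = 8.4e-06), a fitted value for a group near 0 that should be read through the counts above. DESeq2 on all peaks called it too, alone, with an adjusted p of 0.0063. It did not pass with a variance prior made robust to unusually variable peaks (edgeR adjusted p = 0.94) or with the females in the fit (edgeR adjusted p = 0.13). A two-sided exact permutation of the 15 males gave p = 0.0056 for the difference in CPM at this peak, unadjusted for its choice among all peaks.

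Among the females the scaffold_89 site did not divide by care. It was open in 1 of 8 father-reared females, at 22.7 CPM, and in 1 of 8 orphaned females, at 22.2 CPM. The open father-reared female was the sister of father-reared male 6, in whom the site was closed. The sisters of the 5 males with an open site had 0 to 1.39 CPM. The fitted log2 difference between care groups was 5.78 larger in males than in females here, which did not pass (edgeR adjusted p = 1.0). Orphaned males stood near 0, so this fitted value too should be read through the counts above. The 3 neighbours of the site within 10 kb had no unadjusted p under 0.05 in the same direction. In 6 of the 15 brother-sister pairs the site was above 5 CPM in 1 fish and below it in the other.

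A second site of this kind lay on groupXIX at 19958361 to 19958761. All 8 father-reared males were at 0.237 to 0.988 CPM, while orphaned males 1, 5 and 6 had 9.40, 12.4 and 13.8 CPM and the other 4 orphaned males 0.257 to 0.788 CPM. Kept in the table, it had a log2 difference of -3.07 (standard error 0.57; adjusted p by edgeR = 0.15), and the two-sided exact permutation p for CPM was 0.11. Females of both groups were mixed here, with 5 of 8 father-reared and 5 of 8 orphaned females at 5 CPM or more.

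Among the peaks that the filter left, the largest log2 differences lower in father-reared males came from 3 strong peaks that were high in the same 3 males. At scaffold_95 143379 to 143779 father-reared male 2 had 176 CPM and the other father-reared males 1.94 to 17.6 CPM, against 249 and 307 CPM in orphaned males 5 and 7 and 3.15 to 13.6 CPM in the other orphaned males. The same 3 males stood out at scaffold_95 140288 to 140688, with 191 CPM in father-reared male 2 against 258 and 329 CPM in orphaned males 5 and 7. They did so again on another scaffold, at scaffold_61 897443 to 897843, with 101 CPM against 153 and 186 CPM. The log2 differences of -1.43, -1.39 and -1.52 therefore set 1 high male of 8 against 2 of 7, and none passed (edgeR adjusted p = 0.93 each).

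Among females, the sister of orphaned male 7 was high at all 3 sites too, at 471, 513 and 275 CPM, and so was the sister of orphaned male 3, at 185, 189 and 103 CPM. The sisters of father-reared male 2 and of orphaned male 5 were not, at 18.9 and 2.68 CPM at scaffold_95 143379. The fourth of the largest log2 differences of this direction was scaffold_193 51590 (log2 -1.27), where males of both groups ranged from 0 to 11.9 CPM if father-reared and from 0 to 12.5 CPM if orphaned. Of the 4 largest log2 differences higher in father-reared males, 3 are among the 12 above, and the other was scaffold_1332 3935 (log2 1.17, 0.473 to 11.3 CPM against 0.686 to 6.27 CPM). None of these passed.

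**Figure D2:**
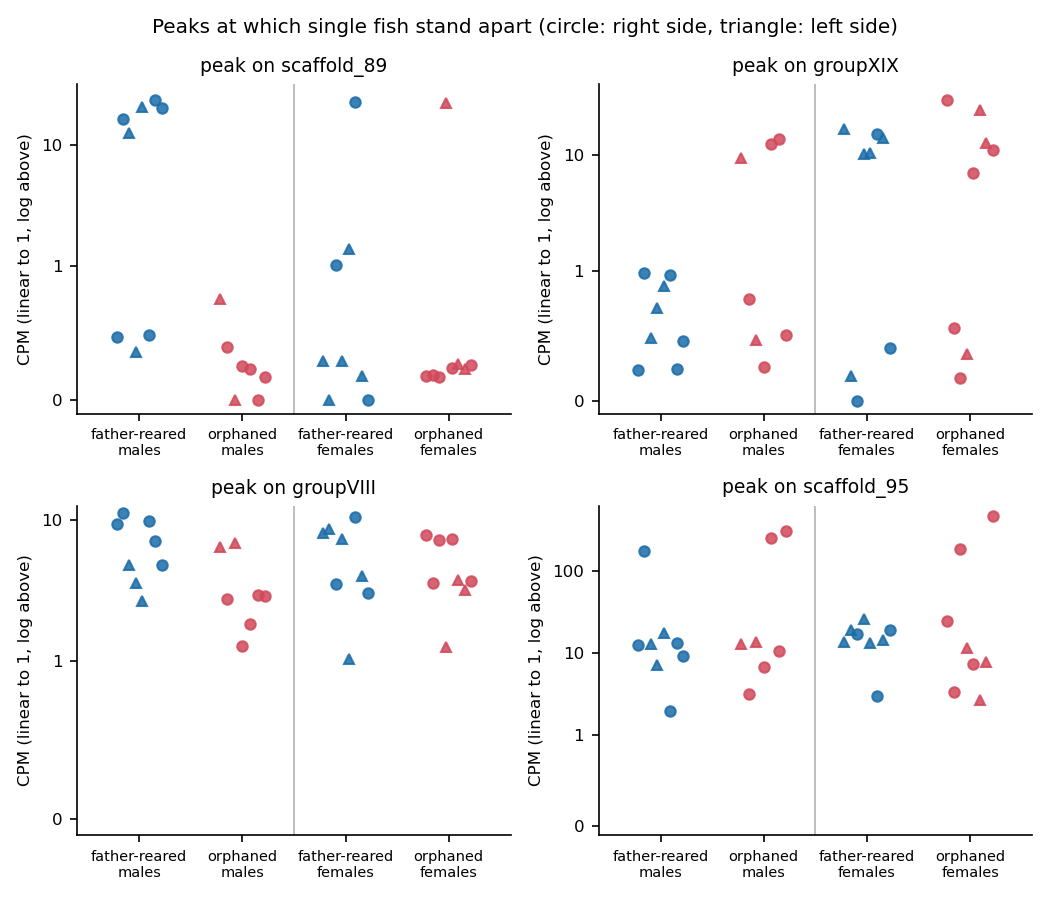
Accessibility in CPM (counts scaled to library size; axis linear up to 1 and logarithmic above) of every fish at 4 variable peaks, males left and females right of the line in each panel. Circles are right and triangles left brain sides. The site on scaffold_89 is open in 5 of 8 father-reared and 0 of 7 orphaned males, and in 1 of 8 females of each group.

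A further peak passed the threshold when the right brain sides were fitted alone, as the only 1 of 100223 peaks tested. At groupVIII 13482665 to 13483065 the 5 father-reared males with right sides had 9.23, 11.1, 9.71, 7.04 and 4.82 CPM, against 2.76, 1.29, 1.83, 2.96 and 2.88 CPM in the 5 orphaned males with right sides. On the left sides the order was the other way round, at 4.81, 3.57 and 2.67 CPM in 3 father-reared males against 6.39 and 6.79 CPM in 2 orphaned males. Among right sides the log2 difference was 1.80 (edgeR adjusted p = 3.1e-04). The peak is named because it passed in this alternative fit, so no further test on these 10 fish is given. Of the 252 splits of 10 fish into 5 and 5, a share of 0.00794 separates any 1 peak fully. Separation of these fish is therefore no further evidence. Over all 15 males the log2 difference was 0.84 (standard error 0.26, adjusted p by edgeR = 0.93). The difference between the sides was not tested.

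Weak and strong peaks leaned in opposite directions. Peaks were divided into 10 classes of equal size by their mean CPM over the males. In the weakest class the median log2 difference was -0.06, with 116 peaks higher and 356 lower in father-reared males at an unadjusted p under 0.05. In the strongest class, 10027 peaks of at least 17.7 CPM, the median was 0.10, with 253 higher (2.52%) and 12 lower (0.12%). Over all peaks tested the median was -0.00, with 2.32% higher and 2.89% lower. After removal of each library's own trend with peak strength the class medians lay between -0.00 and 0.01 by construction. The strongest class then held 216 higher and 189 lower peaks, beside 2959 and 2569 of all 100264 peaks tested. In females the medians ran the same way, with -0.05 in the weakest and 0.16 in the strongest class. Compared fish by fish, the strongest 10% of peaks as ranked in males held 31.0% ± 4.23 of counts in father-reared females. In orphaned females they held 28.8% ± 2.38 (SD, two-sided exact permutation p = 0.22).

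**Figure D3:**
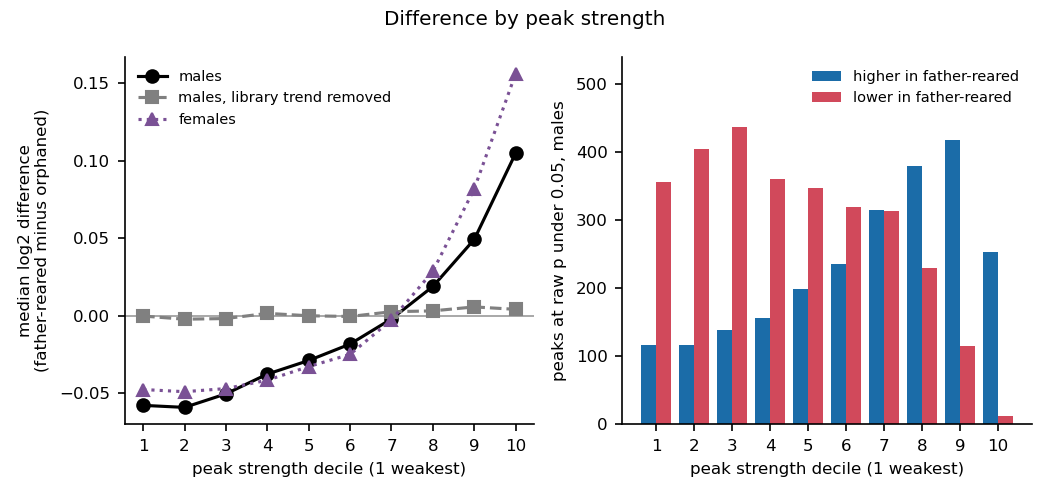
Left, median log2 difference (father-reared minus orphaned) of peaks in 10 classes of mean CPM, for males, for males after removal of each library's trend, and for females. Right, number of peaks per class at an unadjusted p under 0.05 in males, higher or lower in father-reared. The counts run from 116 and 356 in the weakest to 253 and 12 in the strongest class, each of 10027 peaks. Over all 100264 peaks tested they were 2324 and 2893.

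The share of counts in strong peaks was also compared per male. The strongest 10% of peaks held 33.1, 34.3, 27.9, 33.0, 33.5, 29.0, 28.8 and 36.5% of counts in father-reared males, against 29.1, 33.7, 28.7, 31.1, 24.7, 31.8 and 33.0% in orphaned males. The lowest share belonged to orphaned male 5 and the highest to father-reared male 8, and the other males overlapped broadly. The means were 31.998% ± 3.07 and 30.3% ± 3.08 (SD, n = 8 and 7), 1.69 percentage points apart (two-sided exact permutation p = 0.30, adjusted over 6 measures 0.41). The difference was 0.76 without orphaned male 5 and 1.06 without father-reared male 8, and -1.01 within the third stretch of library numbers.

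The share of counts on groupXIX was 3.56% ± 0.0745 in father-reared and 3.50% ± 0.0553 in orphaned males (two-sided exact permutation p = 0.097, adjusted 0.29). Of the peaks tested on groupXIX 143 were higher (3.33%) and 86 lower (2.01%) at an unadjusted p under 0.05, beside 2.32% and 2.89% over all peaks tested. Peaks without a read numbered 160 ± 58.9 in father-reared and 116 ± 27.9 in orphaned males (two-sided exact permutation p = 0.084, adjusted 0.29). This number was not corrected for depth. It was 278 in father-reared male 4, the shallowest library of the males, and 59 in orphaned male 1, the deepest. Total counts were lower in father-reared males on average, at 4362250 ± 891916 against 5188450 ± 1368670 in orphaned males (two-sided exact permutation p = 0.19, adjusted 0.38). That difference of -826200 was -399844 without orphaned male 1. The weakest 50% of peaks held 28.2% ± 2.67 and 29.6% ± 2.76, and scaffolds 9.00% ± 0.207 and 8.91% ± 0.188, with adjusted p values of 0.41 and 0.42 by the same exact permutation.

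**Figure D4:**
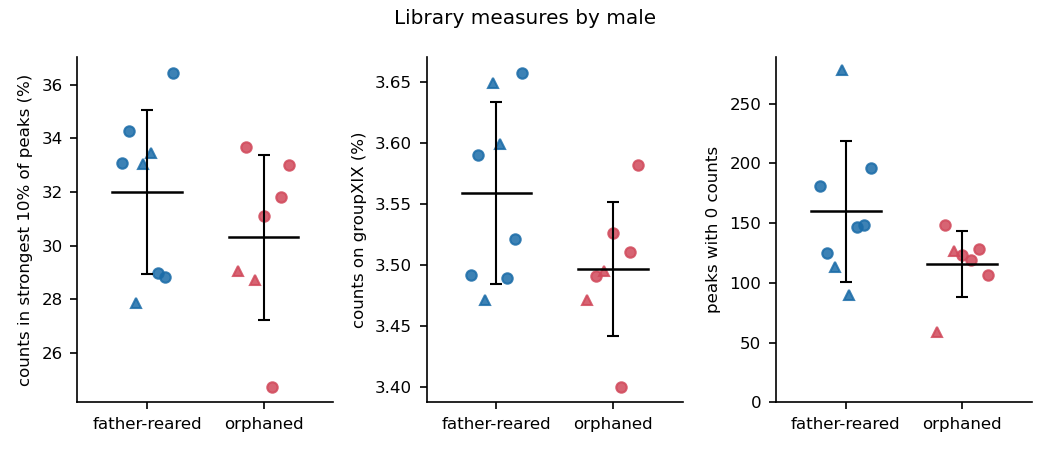
Share of counts in the strongest 10% of peaks, share of counts on groupXIX and number of peaks with 0 counts for each male (circles right, triangles left brain sides; bars are mean and SD). The first 2 axes do not start at 0. Father-reared and orphaned males overlap in all 3 measures, with mean shares of 31.998% and 30.3% in the strongest peaks.

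Sums over longer stretches gave no difference past the threshold. Of 592 units, 1 Mb windows of the linkage groups and scaffolds with at least 5 peaks, 0 passed in edgeR's test (lowest adjusted p 0.76), and 22 had an unadjusted p under 0.05 (3.72%). The 5 with the lowest p were the windows from 10 to 11 Mb on groupXV (log2 -0.04) and from 19 to 20 Mb on groupII (log2 -0.07), and scaffold_231 (-0.13), scaffold_236 (-0.28) and scaffold_313 (0.28). In windows of 100 kb 0 of 4070 passed, with 217 at an unadjusted p under 0.05. Of 22 sums, over the 21 linkage groups and over all scaffolds together, 0 passed and 1 had an unadjusted p under 0.05 (4.55%). The lowest p belonged to groupXVII, at a log2 difference of -0.02 (95% interval -0.04 to -0.00, edgeR adjusted p = 0.73), then groupXIX at 0.03 and groupVIII at 0.01. At an unadjusted p under 0.05, 44 peaks of groupXVII were higher (1.24%) and 112 lower (3.16%), and 165 peaks of groupVIII were higher (3.55%) and 122 lower (2.62%), beside 2.32% and 2.89% over all peaks tested.

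Females of the same 2 care groups, fitted apart, gave the values of the males' peaks in fish that the choice had not used. They share families with the males by the leading fish number, so they are not independent of them. In females 0 of 100356 peaks passed (lowest edgeR adjusted p 0.92), and 4664 had an unadjusted p under 0.05 (4.65%). DESeq2 also called 0, with 4222 at an unadjusted p under 0.05. The 12 peaks higher in father-reared males had a median log2 difference of 0.81 in males and 0.16 in females, and 11 of them had the same direction. The 12 lower peaks had a median of -0.63 in males and -0.10 in females, with the same direction in 9. Over all 100120 peaks tested in both sexes the direction was the same at 57.8%, and among the 5212 at an unadjusted p under 0.05 in males at 63.1%.

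At 6 of the 24 peaks the females had an unadjusted p under 0.05 in the same direction and at 0 in the opposite one. Over all peaks tested in both sexes 2873 of 100120 had the same direction with such a p in females, and 238 of the 5212 at an unadjusted p under 0.05 in males. The 6 were groupII 14550436 (female log2 0.45), scaffold_185 7570 (0.69), scaffold_709 10575 (0.37), groupXIX 8627906 (0.46), groupI 19249555 (-0.37) and groupVI 4973594 (-0.50). At scaffold_47 1119029, with the lowest p in males, the log2 difference in females was 0.05 (SE 0.16). At groupV 6044666 it was -0.07 (SE 0.13), and at groupIX 10809733 -0.11 (SE 0.17).

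**Figure D5:**
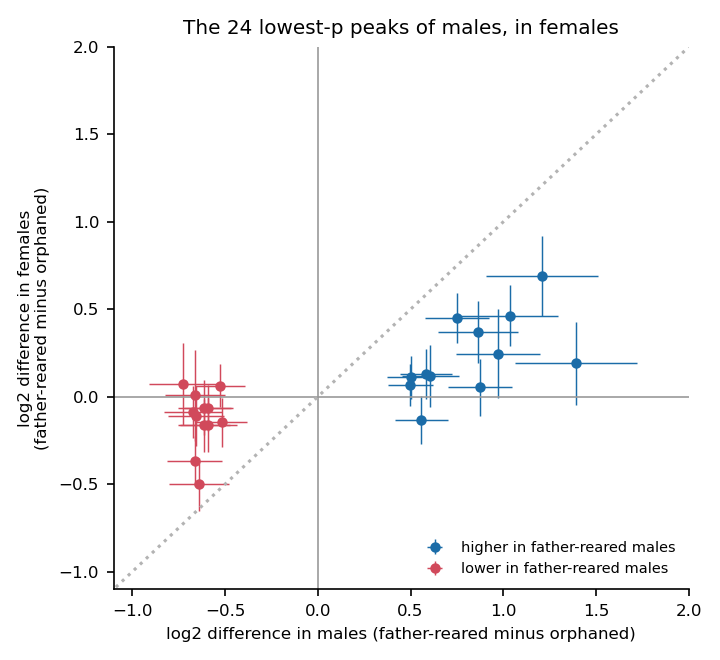
Log2 difference (father-reared minus orphaned) in females against that in males for the 24 peaks with the lowest p in males, 12 in each direction. Bars are SEs and the dotted line marks equal values; 20 of 24 points lie on the same side of 0 in both sexes, and females lie nearer to 0, with medians of 0.16 and -0.10.

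Whether care differed in its effect between males and females was tested directly with all 31 libraries. No peak passed (0 of 100808, lowest edgeR adjusted p 1.0), and 3519 had an unadjusted p under 0.05 (3.49%). DESeq2 also called 0, with 3164 at an unadjusted p under 0.05. Of the 24 peaks named for males 15 had an unadjusted p under 0.05 in this test, which was no independent test, as they were chosen for their difference in males. The 3 lowest p belonged to groupI 4007921 to 4008321, scaffold_89 10177 and scaffold_56 749559 to 749959. At scaffold_56 father-reared males had 5.17 ± 3.26 CPM against 2.87 ± 1.40 CPM in orphaned males. Among females the order was reversed, with 2.89 ± 1.11 CPM if father-reared and 5.37 ± 3.05 CPM if orphaned (SD, n = 8, 7, 8 and 8). That difference of differences was 1.80 on the log2 scale (edgeR adjusted p = 1.0).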

How the data were processed

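The values are raw, whole-number counts of reads at each peak, not normalized, in a table that the authors deposited for 31 libraries. The 15 libraries of males were compared. The submitters' processing notes list the tools DiffBind 3.14.0, MACS2 2.2.5, Bowtie2 2.3.5.1, Picard 2.10.1, SAMtools 1.9 and FastQC 0.11.8 without their roles. No source used here states the genome build, the transposase offset or how duplicates were handled. PCR copies without molecular identifiers are no independent molecules.

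Males were fitted alone, without females in scaling or spread. Peaks were filtered with filterByExpr (minimum count 10, which a peak must reach in about 7 males), which removed 1885 and left 100264. The quasi-likelihood test of edgeR 4.0.16 under R 4.3.3 was run on TMM-scaled counts, and p-values were adjusted by Benjamini-Hochberg (threshold 0.05). DESeq2 1.42.0, limma 3.58.1 (voom) and sva 3.50.0 served in alternatives, as did a trend removal by loess (span 0.3). Library measures were tested by exact permutation over all 6435 splits of the males. The two-sided p was 2 times the smaller tail, with 0.000311 as the smallest possible. Profile shares were tested by one-sided exact permutation, over the same 6435 splits for care and over 3003 splits for brain side. Stretches are 3 runs of 11 library numbers. The labels say libraries were made in batches without naming their members. Fits were tested on simulated counts with known changes.

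Peaks are named by a rule: the 12 lowest p in each direction, the 4 highest and 4 lowest log2 differences at a mean of at least 1 CPM, and any that passed under an alternative calling at most 5. Further, the 5 windows, 3 linkage groups and 3 interaction peaks with the lowest p are named. The males, the rule and the alternatives were chosen with earlier results of these data known. The no-overlap peaks of the whole table are given as counts.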

Additional observations from a re-analysis of the deposited data

Results flagged for a closer look

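Single males stood apart from the rest of their group in 8 of 76 groups of values examined, by the size of the gap to the next male relative to the group's range. Chance gives about 1 in 20 such groups where groups are not chosen by their values. Most groups here came from peaks named for their differences in these same males, and father-reared male 2 was flagged at more than 1 peak. The count therefore cannot be compared with that rate.

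At 3 peaks father-reared male 2 lay far above the other 7 father-reared males: at scaffold_61 897443 with 101 CPM, at scaffold_95 143379 with 176 CPM and at scaffold_95 140288 with 191 CPM. Orphaned males 5 and 7 were as high or higher at the same sites. The log2 differences of these peaks are father-reared minus orphaned and rest on these 3 males.

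Father-reared male 8 had 11.9 CPM at scaffold_193 51590, where the next father-reared male had 3.95 CPM and 5 of 7 orphaned males had 5 CPM or more. Father-reared male 7 had 5.83 CPM at groupI 19249555, below all others of his group, and father-reared male 3 had 3.61 CPM at groupI 14271319. Orphaned male 6 had 11.0 CPM at groupXXI 9074328, above all other orphaned males. Father-reared male 4, the shallowest library, had 9.44% of his counts on scaffolds, the highest share of his group.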

How the results depend on the processing

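The count of 0 peaks for care in males was unchanged with DESeq2, limma voom, RLE size factors, no scaling factors, a robust prior, brain side, stretch or a surrogate variable as a term, trend removal, groupXIX left out, females in the fit, and each male left out (lowest adjusted p 0.060 to 0.89). It was 1 without the filter, with a mean of at least 2 CPM in its place, with DESeq2 without the filter (all scaffold_89 10177) and with right sides only (groupVIII 13482665). Without the filter but with a robust prior it was 0 (lowest edgeR adjusted p 0.22). Without the filter and with each male left out it was 1 to 2, with scaffold_89 10177 each time (edgeR adjusted p from 2.8e-08 to 7.6e-05). Each of these refits used the ordinary prior and most of the males in which that peak stood out. Its repeated calls are therefore no independent evidence. The second call was groupXIX 19958361 without orphaned male 2, 3, 4 or 7 (0.017, 0.018, 0.018 and 0.0078), or scaffold_47 1119029 without father-reared male 6 (0.034). These second calls arose by leaving out males that went against the difference, so they are no support for it. Orphaned males 2, 3, 4 and 7 had 0.257 to 0.788 CPM at groupXIX 19958361, the level of the father-reared males. Father-reared male 6 was the only one of his group not above the highest orphaned male at scaffold_47 1119029. Of 1409 alternatives over 32 named peaks, 1401 kept their direction and side of the threshold and 0 reversed. These refits reuse most of the males in which the peaks were chosen, and left sides alone and single stretches were not among them. On left sides groupVIII 13482665 and scaffold_193 51590 had the opposite direction. Within the first stretch scaffold_61 897443, scaffold_95 143379 and scaffold_95 140288 did, and within the third groupII 14550436, scaffold_185 7570 and scaffold_1332 3935.

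Some differences between father-reared and orphaned males in library measures, none past the threshold, changed sign: total count within the second stretch (331746), the share in the strongest 10% (-1.01) and in the weakest 50% (0.987) within the third, and the share on scaffolds in right sides only (-0.0312). The difference in peaks without a read lay between 27 and 53.9 with each male left out, the lowest without father-reared male 4 and the highest without father-reared male 5 (exact permutation p = 0.027, unadjusted).

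With family as a random replicate block the interaction called 0 peaks, as in the fit without it, with 3984 at an unadjusted p under 0.05 in place of 3519. No block was possible within males, who have 1 fish per family. Windows, linkage groups, females and the interaction gave 0 calls under every alternative run. With 20 to 59 counts at the median peak, the median 95% half-width was 0.30 on the log2 scale, which limits what single peaks can show.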
